A study of Mus musculus with 18 samples.

Results

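The genes described here are the 37 genes of the mouse mitochondrial genome, which were followed across 6 genotypes of cultured primary microglia, the resident macrophages of the brain. They were chosen by name: every row of the count table whose Ensembl identifier maps to a symbol that begins with mt-, which gave 37 of 50686 identifiers (50376 identifiers had a symbol). The set holds 13 protein-coding genes, 2 rRNA genes and 22 tRNA genes. Of the 37 members, 28 are annotated as heavy-strand transcripts and 9 as light-strand transcripts.

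RNA was sequenced from microglia of C57BL/6 pups taken on postnatal day 2, with 3 libraries per genotype and 18 in all. The forebrain cells had grown in culture for 7 days, and for 7 more after a change of medium, before the microglia were shaken off. The genotypes were wild type (WT), Tbk1+/-, Tak1ΔM/+, Tbk1+/-;Tak1ΔM/+ (called Tbk1/Tak1 from here), Tbk1+/- with both alleles of Ripk1 carrying D138N (Tbk1/Ripk1), and Tbk1+/-;Tak1ΔM/+ with 1 allele of Ripk1 carrying D138N (Tbk1/Tak1/Ripk1). TBK1 and TAK1 are kinases that restrain the kinase RIPK1, D138N is a kinase-dead form of RIPK1, and Map3k7 is the gene of TAK1. The labels do not say which cells carry the ΔM allele, nor whether replicate libraries stem from different pups or cultures, so p-values measure the spread between libraries, which may be technical.

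The mitochondrial genome is a small circle with no introns, transcribed from both strands into long precursors. Excision of the tRNAs, which lie between most of the other genes, releases the mRNAs and rRNAs. The 13 proteins are subunits of respiratory chain complexes I, III and IV and of ATP synthase (complex V), while all other subunits, the transcription machinery and the mitochondrial ribosomal proteins are encoded in the nucleus. Most mature mitochondrial mRNAs and rRNAs carry short poly(A) tails and can be primed with oligo(dT). A mature mitochondrial tRNA ends in CCA and is a poor template for that priming, so counts over a tRNA gene may come from precursors or, as this chemistry does not mark the strand, from RNA of the opposite strand. Nuclear chromosomes carry old copies of mitochondrial DNA, which can share reads with their sources.

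The results turn on 6 of the 37 genes most. Of these, 5 are light-strand tRNA genes, shown 5′ to 3′ in the sense of the tRNA with the anticodon in capitals. They are mt-Ta (tRNA for alanine, chrM:5018-5086), mt-Tn (asparagine, chrM:5089-5159), mt-Tc (cysteine, chrM:5192-5257), mt-Ty (tyrosine, chrM:5260-5326) and mt-Tp (proline, chrM:15356-15422), all on the minus strand of GRCm38, read from the GENCODE M21 transcripts. The first 4 form one cluster between the heavy-strand genes mt-Tw and mt-Co1, and mt-Tp lies downstream of mt-Cytb.
mt-Ta: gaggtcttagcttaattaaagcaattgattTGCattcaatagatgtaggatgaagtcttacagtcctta
mt-Tn: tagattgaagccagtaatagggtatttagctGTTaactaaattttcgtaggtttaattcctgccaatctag
mt-Tc: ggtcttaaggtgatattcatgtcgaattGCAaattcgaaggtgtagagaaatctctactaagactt
mt-Ty: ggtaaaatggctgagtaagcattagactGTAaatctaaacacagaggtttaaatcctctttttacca
mt-Tp: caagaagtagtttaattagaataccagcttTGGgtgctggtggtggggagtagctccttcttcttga

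The remaining gene is mt-Nd3 (a complex I subunit, chrM:9459-9806, plus strand), shown beside Gm28438, an annotated copy of it on the minus strand of chromosome 1 (chr1:24612775-24613119). The first 60 bases of each are printed, with the single base at which the 345 aligned bases differ in capitals. The difference is T3C, counted from 1 at the 5′ end of mt-Nd3 (mitochondrial position 9461), with the base of mt-Nd3 first.
mt-Nd3: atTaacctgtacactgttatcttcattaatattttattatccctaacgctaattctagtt
Gm28438: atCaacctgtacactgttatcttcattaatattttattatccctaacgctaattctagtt

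Total counts ranged from 8016559 to 22989116 per library, and between 15548 and 17433 genes had a count. The markers set for microglia summed to between 5842 and 8069 CPM (counts per 1000000, after scaling each library by its TMM factor, a measure of composition) in every library, against at most 66.1 CPM for the astrocyte, 27.03 CPM for the neuron, 56.2 CPM for the fibroblast, mural and endothelial and 171 CPM for the oligodendrocyte lineage markers. Markers of border macrophages and monocytes, which cultured microglia can also express, summed to 1475 to 1594 CPM in Tbk1+/-, above all other libraries, and to 1183 to 1216 CPM in Tbk1/Tak1, within the WT range of 923 to 1291 CPM. Tbk1 was at 104 to 149 CPM in WT and at 50.5 to 66 CPM in the libraries labelled Tbk1+/- and Tbk1/Tak1 and in library 2 of Tbk1/Ripk1. It was at 107 to 131 CPM, near the WT level, in libraries 1 and 3 of Tbk1/Ripk1 and in all 3 libraries labelled Tbk1/Tak1/Ripk1, so these 5 go against the Tbk1 part of their label. Map3k7 was at 10.4 to 19.2 CPM in WT, at 7.34 to 9.98 CPM in Tak1ΔM/+ and, overlapping WT, at 6.57 to 15.8 CPM in Tbk1/Tak1. Ripk1 ranged from 13.6 to 71.0 CPM over all libraries, and a point mutation such as D138N cannot be seen in gene counts. Y-linked genes summed to at most 2.78 CPM in 7 libraries (library 3 of WT, 1 and 3 of Tbk1/Ripk1, all of Tak1ΔM/+ and 1 of Tbk1/Tak1/Ripk1) and to 45.7 CPM or more in the other 11. The TMM factor was above 1 (1.05 to 1.12) in 8 libraries, and these were the 3 of Tbk1/Tak1, library 3 of WT, libraries 1 and 3 of Tbk1/Ripk1, library 1 of Tak1ΔM/+ and library 1 of Tbk1/Tak1/Ripk1.

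Together the 37 genes took between 1.04% and 6.92% of a library's counts, and most of this was rRNA. The rRNA share of counts for libraries 1, 2 and 3 was, in %, 3.54, 3.69 and 2.12 in WT, 4.71, 4.21 and 4.39 in Tbk1+/-, 1.303, 2.75 and 3.53 in Tak1ΔM/+, 1.21, 3.55 and 1.76 in Tbk1/Ripk1, 1.42, 1.32 and 0.671 in Tbk1/Tak1 and 1.03, 2.29 and 2.15 in Tbk1/Tak1/Ripk1. The mean was 3.12% ± 0.865 (SD, n = 3) in WT, 4.43% ± 0.252 in Tbk1+/- and 1.13% ± 0.405 in Tbk1/Tak1. Every Tbk1+/- library lay above every other library, and the Tbk1/Tak1 libraries lay below every WT library but overlapped those of Tak1ΔM/+, Tbk1/Ripk1 and Tbk1/Tak1/Ripk1.

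The protein-coding share of counts was, in %, 1.42, 1.62 and 0.671 in WT, 2.2, 1.82 and 2.003 in Tbk1+/-, 0.453, 1.41 and 1.51 in Tak1ΔM/+, 0.451, 1.57 and 0.449 in Tbk1/Ripk1, 0.512, 0.509 and 0.367 in Tbk1/Tak1 and 0.3703, 1.095 and 1.05 in Tbk1/Tak1/Ripk1. Here too Tbk1+/- stood above all other libraries and Tbk1/Tak1 below WT. Within a genotype the highest library exceeded the lowest by 3.49 times in Tbk1/Ripk1, 3.32 times in Tak1ΔM/+, 2.96 times in Tbk1/Tak1/Ripk1 and 2.41 times in WT, against 1.39 times in Tbk1/Tak1 and 1.21 times in Tbk1+/-. The share was 0.367% to 0.671% in the 8 libraries with a TMM factor above 1 and 1.05% to 2.20% in the 10 with a factor below 1. The same 8 libraries had the smallest share of the most abundant rRNA gene outside the mitochondrial genome (10.9% to 13% against 13.6% to 15.6%). The part of these library properties in the genotype differences was not tested. Only 1 WT library was among the 8, so no comparison with WT could be made within them. Among the libraries with a TMM factor above 1, Tbk1/Tak1 (0.367% to 0.512%) overlapped the 5 libraries of other genotypes (0.37% to 0.671%). Among the 11 libraries with Y-linked counts, Tbk1/Tak1 lay below the 8 libraries of other genotypes (1.05% to 2.20%). Those 8 held no Tak1ΔM/+ library, and all had a TMM factor below 1 (0.905 to 0.977), against 1.11 to 1.12 in Tbk1/Tak1.

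The tRNA genes took far less: in %, the share was 0.00574, 0.00697 and 0.00325 in WT, 0.00776, 0.00674 and 0.00966 in Tbk1+/-, 0.00192, 0.00568 and 0.006798 in Tak1ΔM/+, 0.00211, 0.00469 and 0.00238 in Tbk1/Ripk1, 0.001504, 0.00104 and 0.000771 in Tbk1/Tak1 and 0.00172, 0.00288 and 0.00317 in Tbk1/Tak1/Ripk1. Mean shares were 0.00532% ± 0.00190 (SD, n = 3) in WT, 0.00805% ± 0.00148 in Tbk1+/- and 0.00110% ± 0.000371 in Tbk1/Tak1. The 3 Tbk1/Tak1 libraries were below all 15 others in this class alone. Its least certain value, in Tbk1/Tak1 library 2, rested on 83 counts (95% Wilson interval 0.000835% to 0.00128%). Intervals cover counting error only, since the reads carry no molecular identifiers. With 3 libraries against 3, an exact two-sided permutation test cannot give a p below 0.1.

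**Figure D1:**
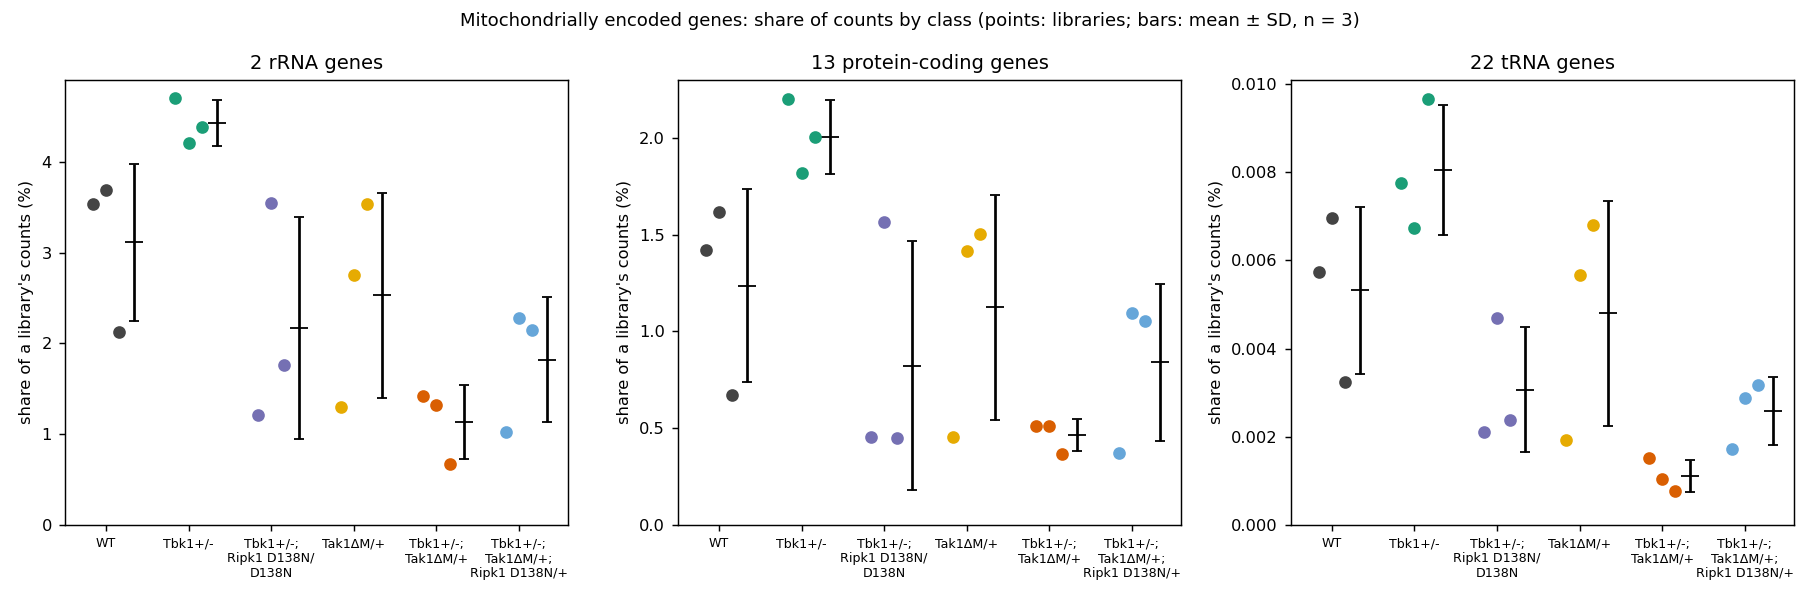
Share of each library's counts (%, vertical axes) taken by the rRNA, protein-coding and tRNA members in the 6 genotypes; points are libraries and bars give the mean ± SD (n = 3). Tbk1+/- was highest in rRNA and protein-coding share, and the tRNA share of Tbk1/Tak1 (0.000771% to 0.001504%) lay below every other library.

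Levels differed widely between members. mt-Rnr2, the large-subunit rRNA, was the most abundant, with a mean of 25560 CPM over the 18 libraries and 16160 CPM per kb. mt-Rnr2 was at 37440, 38590 and 19550 CPM in WT, 47880, 45420 and 44010 in Tbk1+/-, 11710, 28650 and 37240 in Tak1ΔM/+, 11140, 37010 and 16360 in Tbk1/Ripk1, 12470, 11610 and 5864 in Tbk1/Tak1 and 9350, 23290 and 22480 in Tbk1/Tak1/Ripk1. The small-subunit rRNA mt-Rnr1 was far below it at a mean of 645 CPM per kb. mt-Rnr1 was at 808, 859 and 493 CPM in WT, 1164, 1100 and 937 in Tbk1+/-, 279, 660 and 979 in Tak1ΔM/+, 310, 853 and 431 in Tbk1/Ripk1, 302, 316 and 152 in Tbk1/Tak1 and 248, 600 and 590 in Tbk1/Tak1/Ripk1. In both, each Tbk1+/- library exceeded each Tbk1/Tak1 library by more than the spread within the genotypes, while WT library 3 lay well under the other WT libraries.

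Among the mRNAs, mt-Co1, the catalytic subunit of complex IV, was highest at a mean of 3431 CPM per kb. mt-Co1 was at 7514, 8130 and 2787 CPM in WT, 10840, 9387 and 9346 in Tbk1+/-, 1923, 7822 and 8315 in Tak1ΔM/+, 1988, 7786 and 1904 in Tbk1/Ripk1, 1950, 1901 and 1432 in Tbk1/Tak1 and 1512, 5383 and 5495 in Tbk1/Tak1/Ripk1. It was followed per kb by mt-Cytb, the one mitochondrial subunit of complex III (2092 CPM per kb), mt-Nd1 (1617 CPM per kb) and mt-Nd5 (595 CPM per kb), both of complex I. For mt-Co1, library 1 of Tak1ΔM/+, library 3 of Tbk1/Ripk1 and library 1 of Tbk1/Tak1/Ripk1 lay within the range of Tbk1/Tak1, library 1 of Tbk1/Ripk1 lay just above it, and no WT or Tbk1+/- library reached it. The level of mt-Nd6, the only mRNA of the light-strand transcript, was 176 CPM per kb.

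The makeup of the protein-coding pool was steadier than its size. As a percent of the counts of the 13 mRNAs, mt-Co1 took 46.7% ± 2.48 (SD, n = 3) in WT, 46.5% ± 0.894 in Tbk1+/-, 49.7% ± 3.14 in Tak1ΔM/+, 45.8% ± 1.22 in Tbk1/Ripk1, 42.3% ± 1.03 in Tbk1/Tak1 and 46.5% ± 2.59 in Tbk1/Tak1/Ripk1. Every Tbk1/Tak1 library (41.4% to 43.4%) lay below every other library, the nearest being a Tbk1/Tak1/Ripk1 library at 43.6%. In the other direction mt-Nd4 took 6.11% ± 0.457 of the pool in Tbk1/Tak1 against 4.89% ± 0.3401 in WT, with no overlap (5.72% to 6.61% against 4.56% to 5.24%). The percents of mt-Cytb (21.5% ± 1.74 against 21.1% ± 0.325) and mt-Nd6 (0.761% ± 0.166 against 0.882% ± 0.0976) overlapped between these genotypes. These percents were compared after the values were seen and carry no test beyond the exact limit of 0.1 for 3 against 3.

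A group of 6 mRNAs stood apart with almost no counts. The mRNAs of mt-Co2 and mt-Co3 (complex IV), mt-Atp6 and mt-Atp8 (ATP synthase), mt-Nd3 and mt-Nd4l (complex I) had mean levels of 1.70 to 13.1 CPM per kb, against 176 to 3431 CPM per kb for the other 7 mRNAs, although all heavy-strand mRNAs come from the same precursors. These 6 genes lie side by side at positions 7013 to 10173 of the mitochondrial genome. They fall inside the stretch 6381 to 11042 that matches 7 annotated pseudogenes on chromosome 1 (chr1:24611535-24616197, GRCm38). The copies Gm28661 of mt-Co2, Gm10925 of mt-Atp6, Gm28437 of mt-Co3 and Gm10222 of mt-Nd4l were 100% identical over 681, 678, 783 and 294 bases, and Gm28439 matched the first 876 bases of mt-Nd4 without a difference.

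Reads here were 50 bases long. The share of a gene's 50-base stretches that also occur in an annotated nuclear transcript was 100% for mt-Co2, 99.9% for mt-Co3, 99.5% for mt-Atp6, 98.8% for mt-Nd4l and 98.0% for mt-Nd3. It was 62.2% for mt-Nd4, 51.1% for mt-Co1, 8.19% for mt-Nd2, 7.61% for mt-Nd5 and 0% for mt-Nd1, mt-Nd6 and mt-Cytb. No annotated nuclear transcript held a stretch of mt-Atp8 (0%), although the gene lies inside the matching span. The copies took counts of their own: 25 to 238 per library for Gm28661, against 4 to 126 for mt-Co2, and 37 to 383 for Gm28437, against 2 to 192 for mt-Co3. How the authors' counting treated reads that map to more than 1 place is not given in the sources used here, so the levels of these 6 genes, and in part those of mt-Nd4 and mt-Co1, are uncertain.

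**Figure D2:**
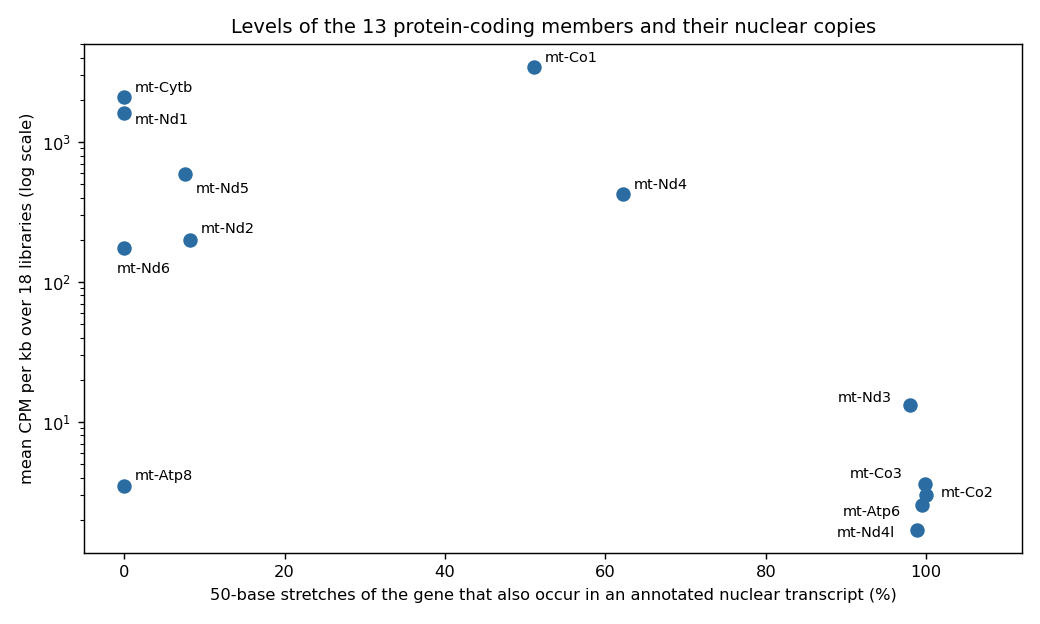
Mean level of each of the 13 protein-coding members over 18 libraries (CPM per kb, log scale) against the percent of its 50-base stretches that also occur in an annotated nuclear transcript. The 5 genes at 98.0% or more, and mt-Atp8, sat at 1.70 to 13.1 CPM per kb, and the other 7 at 176 or more.

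Of the 22 tRNA genes, 12 had enough counts to be tested, and these were all 8 light-strand tRNAs but only 4 of the 14 heavy-strand ones (mt-Tl1, mt-Ti, mt-Tm and mt-Tw). The highest mean level was that of mt-Ta, at 168 CPM per kb, followed by mt-Tc at 150, mt-Ty at 85.4, mt-Tn at 64.1 and mt-Tq at 63.8 CPM per kb. No heavy-strand tRNA was above 22.3 CPM per kb (mt-Tm). The 10 tRNA genes that were not tested had between 0 and 10 counts in any library, and mt-Td and mt-Tk had 0 in all 18, which allows up to 3 counts in each. With the 13 mRNAs and 2 rRNAs, 27 of the 37 members entered the test.

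The comparison that bears on the joint loss of an allele each of Tbk1 and Tak1 is Tbk1/Tak1 against WT. There 7 of 27 members fell and none rose, against 3.90% of the 13447 genes tested that fell. All 27 had a fitted log2 fold change below 0, with a median of -1.67 (range -7.00 to -0.31), while the median over all genes was 0.00379. The libraries did not overlap for 20 of the 27, all lower in Tbk1/Tak1, against 14.4% of all genes. By strand, 5 of the 9 light-strand members fell (median -2.76) and 2 of the 18 tested heavy-strand members (median -1.46). The 7 were mt-Ta, mt-Tn, mt-Tc, mt-Ty and mt-Tp, mt-Rnr2 and mt-Nd3. In bulk RNA, fewer mitochondrial transcripts per cell and a change in the mix of cells cannot be told apart.

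The cluster of 4 light-strand tRNA genes fell together. mt-Ta was at 18.2, 20.9 and 7.83 CPM in WT, 23.3, 16.96 and 28.1 in Tbk1+/-, 6.47, 17.5 and 20.3 in Tak1ΔM/+, 4.29, 12.7 and 5.96 in Tbk1/Ripk1, 3.08, 2.25 and 1.34 in Tbk1/Tak1 and 4.03, 6.58 and 8.54 in Tbk1/Tak1/Ripk1. mt-Tn was at 8.17, 8.07 and 3.89 CPM in WT, 8.01, 8.62 and 12.6 in Tbk1+/-, 1.37, 5.04 and 6.999 in Tak1ΔM/+, 2.38, 3.95 and 2.15 in Tbk1/Ripk1, 0.636, 1.01 and 0.747 in Tbk1/Tak1 and 2.02, 3.29 and 3.03 in Tbk1/Tak1/Ripk1. Tbk1/Tak1 libraries were the lowest of all 18 for both genes, with no overlap with any genotype. The log2 fold change against WT was -2.81 ± 0.52 (SE, adjusted p = 0.00489) for mt-Ta and -3.09 ± 0.54 (SE, adjusted p = 0.00344) for mt-Tn by edgeR's quasi-likelihood test.

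The other pair of the cluster, for cysteine and tyrosine, gave the same picture. mt-Tc was at 14.5, 16.7 and 7.72 CPM in WT, 19, 17.2 and 25.3 in Tbk1+/-, 2.51, 13.5 and 18.2 in Tak1ΔM/+, 4.29, 11.7 and 5.74 in Tbk1/Ripk1, 2.598, 1.58 and 1.49 in Tbk1/Tak1 and 2.67, 6.29 and 7.37 in Tbk1/Tak1/Ripk1. mt-Ty was at 8.104, 10.3 and 4.35 CPM in WT, 12.4, 9.19 and 13.7 in Tbk1+/-, 3.33, 8.26 and 8.03 in Tak1ΔM/+, 2.53, 6.66 and 2.74 in Tbk1/Ripk1, 1.697, 0.338 and 0.647 in Tbk1/Tak1 and 2.19, 3.51 and 4.99 in Tbk1/Tak1/Ripk1. The Tbk1/Tak1 libraries were below all WT and all Tbk1+/- libraries. Library 1 of Tak1ΔM/+ (2.51 CPM) lay within the Tbk1/Tak1 range for mt-Tc but not for mt-Ty. The log2 fold change was -2.76 ± 0.60 (SE, adjusted p = 0.012) for mt-Tc and -3.0 ± 0.57 (SE, adjusted p = 0.0053) for mt-Ty. The mt-Tc call was lost without Tbk1/Tak1 library 2 (adjusted p = 0.0531) or library 3 (adjusted p = 0.071), and those of mt-Ta, mt-Tn and mt-Ty held without each library in turn.

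**Figure D3:**
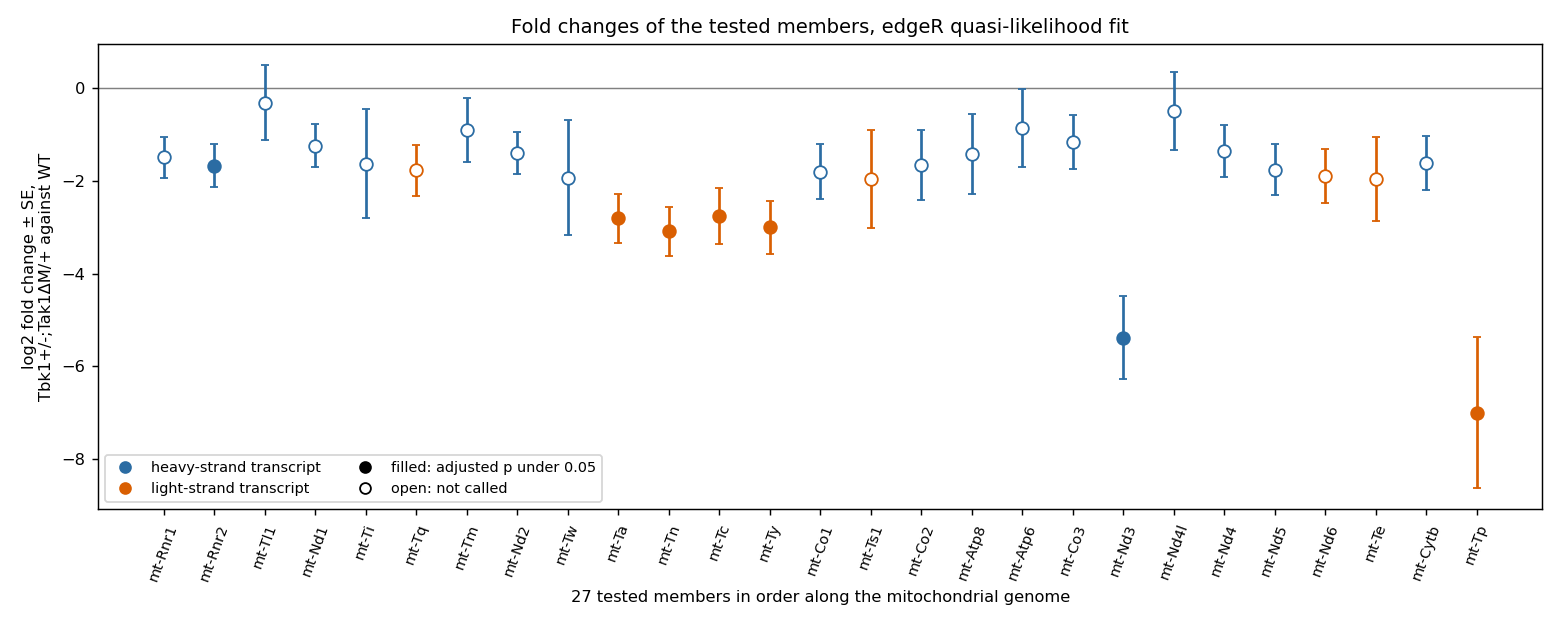
Log2 fold change ± SE of the 27 tested members in Tbk1/Tak1 against WT (vertical axis), in their order along the mitochondrial genome, coloured by the strand of their transcript; filled points have an adjusted p under 0.05. All 27 lay below 0, and 5 of the 7 filled points are light-strand tRNA genes.

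The cluster was also set against the mitochondrial mRNAs; its 4 genes were summed after they had been seen to fall, so the ratio describes the same counts and is no separate evidence. Per 1000 counts of the 13 protein-coding members, the 4 genes summed to 3.19, 3.24 and 3.75 in WT, 2.74, 2.59 and 3.88 in Tbk1+/-, 3.28, 2.94 and 3.29 in Tak1ΔM/+, 3.15, 2.1 and 3.87 in Tbk1/Ripk1, 1.73, 1.13 and 1.28 in Tbk1/Tak1 and 3.15, 1.72 and 2.12 in Tbk1/Tak1/Ripk1. Tbk1/Tak1 stayed under WT, Tbk1+/-, Tak1ΔM/+ and Tbk1/Ripk1 in every library, and its highest library (1.73) just passed the lowest of Tbk1/Tak1/Ripk1 (1.72). Among the 8 libraries with a TMM factor above 1, the ratio was 1.13 to 1.73 in Tbk1/Tak1 and 3.15 to 3.87 in the other 5. Among the 11 libraries with Y-linked counts it was 1.13 to 1.73 in Tbk1/Tak1 and 1.72 to 3.88 elsewhere. The 3 other light-strand tRNAs that had counts in Tbk1/Tak1 overlapped WT on this scale: mt-Tq at 0.221 to 0.551 against 0.334 to 0.494, mt-Te at 0.0151 to 0.196 against 0.0733 to 0.147 and mt-Ts1 at 0 to 0.0689 against 0.02885 to 0.0641.

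The 14 heavy-strand tRNAs, summed in the same way, were not lower in Tbk1/Tak1. Their ratio was 0.489 ± 0.00526 (SD, n = 3) per 1000 in Tbk1/Tak1 against 0.354 ± 0.0598 in WT, and 0.293 to 0.582 over all libraries. The Tbk1/Tak1 ratios rested on 43, 20 and 32 counts in libraries 1 to 3, so the SD understates their counting error. The light-strand mRNA mt-Nd6 likewise kept to the size of the pool, with 7.60 ± 1.66 counts per 1000 in Tbk1/Tak1 and 8.82 ± 0.976 in WT. All these ratios were examined after the member values had been seen, and 3 libraries against 3 allow no exact p below 0.1. As strand was not marked, counts over the cluster hold any antisense RNA of the heavy-strand precursor that runs from mt-Nd2 to mt-Co1.

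**Figure D4:**
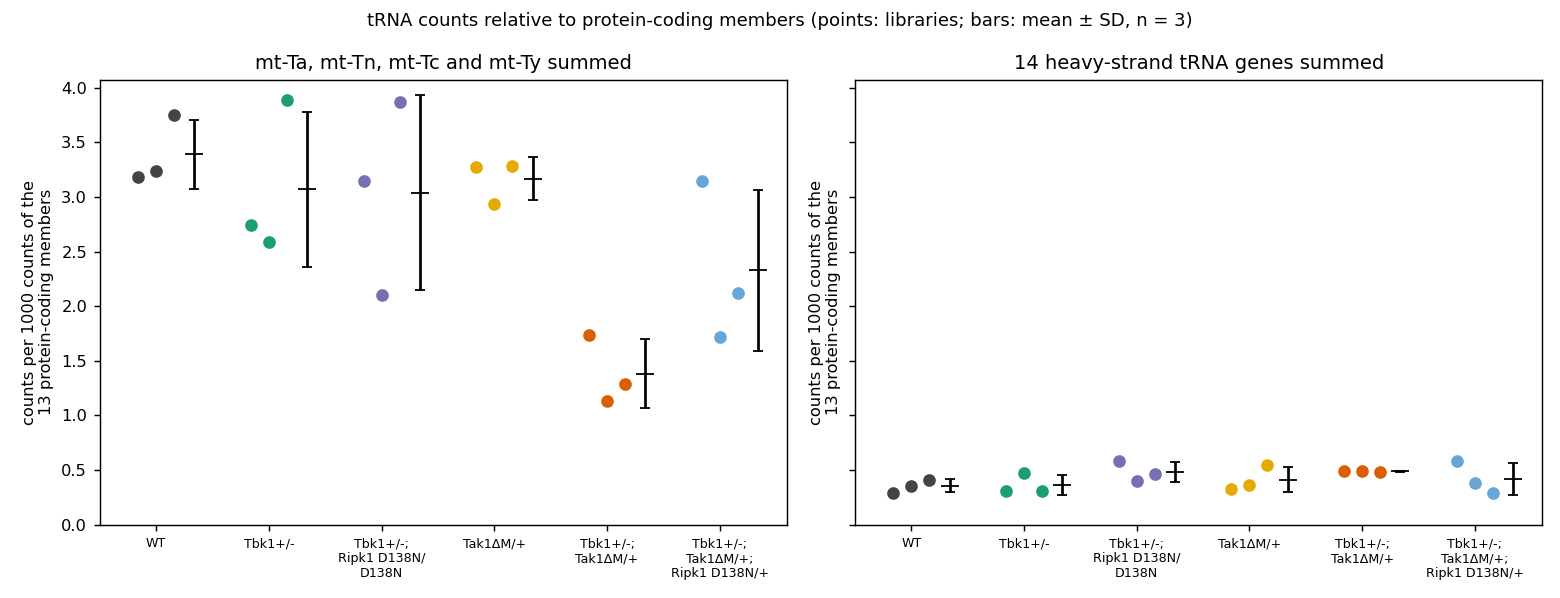
Counts of the 4 clustered light-strand tRNA genes (left) and of the 14 heavy-strand tRNA genes (right) per 1000 counts of the 13 protein-coding members, by genotype; points are libraries and bars give the mean ± SD (n = 3). Tbk1/Tak1 sat at 1.13 to 1.73 on the left, where the other genotypes spanned 1.72 to 3.88, and within the range of the others on the right.

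mt-Tp, on the light-strand transcript but away from the cluster, had few counts throughout. It had 16, 25 and 5 counts in WT, 33, 24 and 26 in Tbk1+/-, 4, 9 and 14 in Tak1ΔM/+, 2, 18 and 8 in Tbk1/Ripk1, 0, 0 and 0 in Tbk1/Tak1 and 2, 18 and 24 in Tbk1/Tak1/Ripk1. All 3 Tbk1/Tak1 libraries were at 0, and library 1 of Tbk1/Ripk1 and of Tbk1/Tak1/Ripk1 had 2 each. Against a floor of 3 counts in each Tbk1/Tak1 library, mt-Tp was at least 4.29-fold lower there than in WT (adjusted p = 0.0196) and at least 7.25-fold lower than in Tbk1+/- (adjusted p = 0.00515). The call against WT was lost without WT library 2 (adjusted p = 0.0602) or without any of the Tbk1/Tak1 libraries (adjusted p = 0.0544 to 0.0859).

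mt-Rnr2 was the only abundant member that fell against WT, by 1.67 ± 0.46 on the log2 scale (SE, adjusted p = 0.0391), from 31860 CPM ± 10670 (SD, n = 3) to 9982 CPM ± 3592. The call was lost without WT library 1 (adjusted p = 0.116) or 2 (0.131) and without Tbk1/Tak1 library 1 (0.0788), 2 (0.0883) or 3 (0.18). The mRNAs mt-Co1, mt-Cytb, mt-Nd1, mt-Nd5 and mt-Nd6 had log2 fold changes of -1.80, -1.62, -1.24, -1.76 and -1.89, with adjusted p-values of 0.0801, 0.109, 0.136, 0.0674 and 0.0609, and were not called. How many members pass depends on the fit: 12 with DESeq2, 14 when the 6 libraries were fitted alone, 13 without the 5 libraries whose Tbk1 level goes against the label and 16 with a term for Y-linked counts, all of them lower in Tbk1/Tak1. The shares of all genes called in these fits are not given here. Only WT, Tbk1/Ripk1 and Tbk1/Tak1/Ripk1 held libraries both above and below 10 CPM of Y-linked genes. Their low libraries were those with a TMM factor above 1. Tbk1/Tak1 had Y-linked counts and a TMM factor above 1, so the Y term cannot separate these library properties from genotype.

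mt-Nd3 showed the largest change of any member with counts in both groups, and it moved against its nuclear copy. mt-Nd3 had 119, 134 and 91 counts in WT, 140, 151 and 104 in Tbk1+/-, 109, 81 and 108 in Tak1ΔM/+, 39, 3 and 60 in Tbk1/Ripk1, 0, 0 and 8 in Tbk1/Tak1 and 43, 97 and 142 in Tbk1/Tak1/Ripk1. Its copy Gm28438 had 12, 12 and 3 counts in WT, 13, 24 and 8 in Tbk1+/-, 5, 8 and 13 in Tak1ΔM/+, 0, 142 and 4 in Tbk1/Ripk1, 57, 63 and 47 in Tbk1/Tak1 and 4, 8 and 13 in Tbk1/Tak1/Ripk1. In the 3 Tbk1/Tak1 libraries and in library 2 of Tbk1/Ripk1, mt-Nd3 had 0 to 8 counts and Gm28438 47 to 142, whereas in the other 14 libraries mt-Nd3 had 39 to 151 and Gm28438 0 to 24, with no value between.

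Taken as a percent of the sum of both, mt-Nd3 made up 0% (95% Wilson interval up to 6.31%), 0% (up to 5.75%) and 14.5% (7.56% to 26.2%) in Tbk1/Tak1 libraries 1 to 3 and 2.07% (0.706% to 5.91%) in Tbk1/Ripk1 library 2. It made up 86.3% to 100% in the other 14. As a single gene mt-Nd3 fell in Tbk1/Tak1, with a log2 fold change of -5.38 ± 0.90 (SE, adjusted p = 0.0026) against WT. When the counts of mt-Nd3 and Gm28438 were summed to 1 feature, a step chosen after these values were seen, the log2 fold change was -0.83 ± 0.52 (SE, adjusted p = 0.407) and the call ended. The sum was 7.45 CPM ± 1.74 (SD, n = 3) in WT and 4.29 CPM ± 2.44 in Tbk1/Tak1, and the libraries overlapped. Which base the reads carried at the site of T3C cannot be read from gene counts and was not tested.

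**Figure D5:**
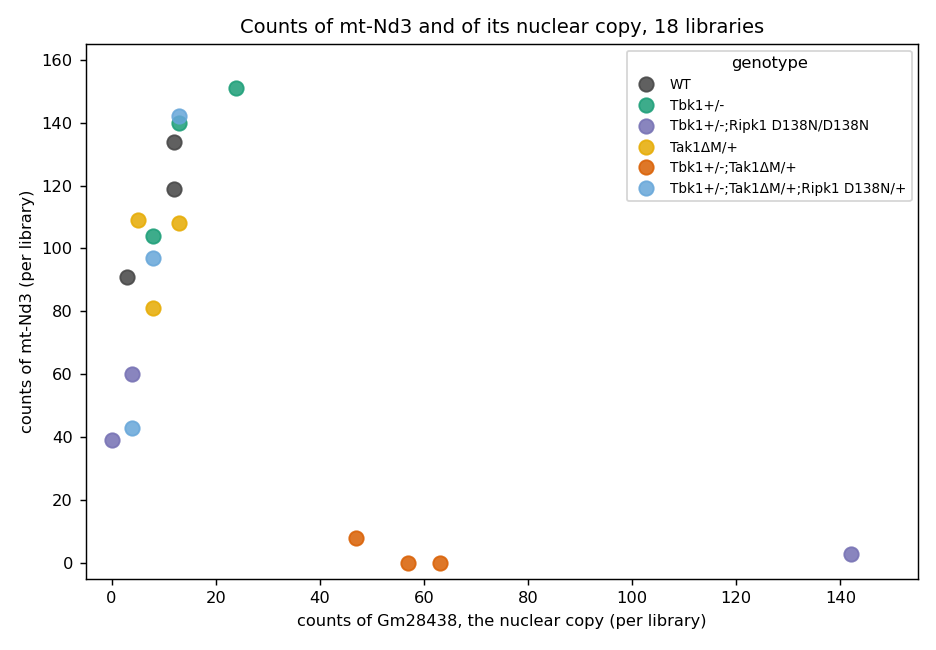
Counts of mt-Nd3 (vertical axis) against counts of its chromosome 1 copy Gm28438 (horizontal axis) in each of the 18 libraries, coloured by genotype. The 3 Tbk1/Tak1 libraries and 1 Tbk1/Ripk1 library lie along the bottom, at 0 to 8 counts of mt-Nd3, and the other 14 lie at 0 to 24 counts of Gm28438.

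Against Tbk1+/- the difference was broader. In Tbk1/Tak1 18 of 27 members fell and none rose, against 8.24% of all genes that fell, with a median log2 fold change of -2.38 (0.00669 over all genes). None of the 27 overlapped between the libraries of both genotypes, against 16.4% of all genes lower without overlap. The 18 were both rRNAs, 10 of 13 mRNAs and 6 of 12 tested tRNAs. Tbk1+/- had the highest shares of all genotypes, and the comparison with WT uses the same Tbk1/Tak1 libraries, so the counts of both comparisons are not independent. Of 7 tested border macrophage and monocyte markers, 2 fell here by edgeR and none rose. They were Lyve1 (log2 fold change of -6.34 ± 1.38, adjusted p = 0.00524) and F13a1 (-1.85 ± 0.52, adjusted p = 0.0228). Of 10 microglia markers 4 fell and none rose. Fcrls (-1.78 ± 0.37, adjusted p = 0.00372) and P2ry12 (-1.38 ± 0.35, adjusted p = 0.0128) changed most. Against WT, edgeR called 1 of these 10, Itgam, which fell (-0.94 ± 0.19, adjusted p = 0.00879). DESeq2 called 4 of them against WT, of which 3 were lower and 1 higher. The part of either marker set in the mitochondrial difference was not tested.

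Of the complex I subunits, mt-Nd1, mt-Nd2, mt-Nd3, mt-Nd4, mt-Nd5 and mt-Nd6 fell against Tbk1+/-, with log2 fold changes of -1.93, -1.92, -5.49, -2.07, -2.42 and -2.41 (adjusted p of 0.000921 to 0.0216), mt-Nd3 with the limit given by its copy. mt-Nd1 was at 1925, 2285 and 1058 CPM in WT, 2966, 2575 and 3004 in Tbk1+/-, 710, 1822 and 2093 in Tak1ΔM/+, 631, 2337 and 750 in Tbk1/Ripk1, 828, 905 and 502 in Tbk1/Tak1 and 595, 1518 and 1349 in Tbk1/Tak1/Ripk1. mt-Nd2 was at 287, 327 and 163 CPM in WT, 349, 399 and 366 in Tbk1+/-, 97.5, 231 and 297 in Tak1ΔM/+, 86.3, 299 and 116 in Tbk1/Ripk1, 105, 134 and 57.8 in Tbk1/Tak1 and 78.7, 186 and 164 in Tbk1/Tak1/Ripk1. Library 3 of Tbk1/Tak1 was the lowest of all 18 for both genes, and without it the calls of mt-Nd1 (adjusted p = 0.0701), mt-Nd2 (0.0649) and mt-Nd6 (0.0631) were lost. That of mt-Nd4 was lost without Tbk1+/- library 1 (0.0577) or Tbk1/Tak1 library 1 (0.0681), 2 (0.0625) or 3 (0.0914).

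The values of mt-Nd4, mt-Nd5 and mt-Nd6 were as follows. mt-Nd4 was at 805, 845 and 289 CPM in WT, 1125, 1018 and 1042 in Tbk1+/-, 206, 804 and 822 in Tak1ΔM/+, 233, 855 and 221 in Tbk1/Ripk1, 264, 276 and 218 in Tbk1/Tak1 and 190, 654 and 624 in Tbk1/Tak1/Ripk1. mt-Nd5 was at 1483, 1846 and 624 CPM in WT, 2126, 2097 and 2033 in Tbk1+/-, 420, 1252 and 1311 in Tak1ΔM/+, 393, 1586 and 430 in Tbk1/Ripk1, 439, 430 and 297 in Tbk1/Tak1 and 348, 1219 and 1196 in Tbk1/Tak1/Ripk1. mt-Nd6 was at 144, 163 and 48.7 CPM in WT, 168, 149 and 191 in Tbk1+/-, 43.8, 99.96 and 107 in Tak1ΔM/+, 27.96, 130 and 38.9 in Tbk1/Ripk1, 30.8, 43.7 and 21.9 in Tbk1/Tak1 and 27.3, 115 and 94.2 in Tbk1/Tak1/Ripk1. For each of the 3, no Tbk1/Tak1 library reached any WT or Tbk1+/- library, while library 1 of Tak1ΔM/+, libraries 1 and 3 of Tbk1/Ripk1 and library 1 of Tbk1/Tak1/Ripk1 were below every WT library too.

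In complexes III and IV, mt-Cytb, mt-Co1, mt-Co2 and mt-Co3 fell against Tbk1+/-, with log2 fold changes of -2.42, -2.48, -2.54 and -2.11 (adjusted p of 0.0107 to 0.0326). mt-Cytb was at 3189, 3663 and 1355 CPM in WT, 5319, 4440 and 4523 in Tbk1+/-, 762, 3016 and 3319 in Tak1ΔM/+, 918, 3678 and 818 in Tbk1/Ripk1, 1000, 903 and 762 in Tbk1/Tak1 and 709, 2361 and 2341 in Tbk1/Tak1/Ripk1. mt-Co2 and mt-Co3, whose sequences are shared with nuclear copies, had few counts. mt-Co2 was at 1.52, 4.71 and 1.51 CPM in WT, 6.08, 3.197 and 5.04 in Tbk1+/-, 0.456, 3.46 and 2.81 in Tak1ΔM/+, 0.568, 1.67 and 0.698 in Tbk1/Ripk1, 0.5302, 0.451 and 1.39 in Tbk1/Tak1 and 0.474, 1.61 and 0.793 in Tbk1/Tak1/Ripk1. mt-Co3 was at 3.93, 2.298 and 2.67 CPM in WT, 9.26, 3.997 and 3.91 in Tbk1+/-, 1.504, 4.86 and 2.75 in Tak1ΔM/+, 2.74, 3.399 and 2.25 in Tbk1/Ripk1, 1.803, 0.225 and 1.79 in Tbk1/Tak1 and 1.07, 1.24 and 1.35 in Tbk1/Tak1/Ripk1. Their Tbk1/Tak1 libraries varied more within the genotype than those of mt-Cytb did, and mt-Co3 in library 2 had only 2 counts. The mt-Co2 call was lost without Tbk1+/- library 1 (adjusted p = 0.0972) or 3 (0.0687) or Tbk1/Tak1 library 1 (0.12) or 2 (0.112). That of mt-Co3 was lost without Tbk1+/- library 1 (0.128) or Tbk1/Tak1 library 2 (0.0635) and with only the libraries compared (0.0646), and those of mt-Co1 (0.0581) and mt-Cytb (0.0589) without Tbk1/Tak1 library 3.

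The tRNA for glutamine, mt-Tq, lies apart from the cluster on the light-strand transcript and also fell against Tbk1+/- (log2 fold change of -2.38 ± 0.56 (SE, adjusted p = 0.00818)). mt-Tq was at 5.13, 7.6 and 3.13 CPM in WT, 7.19, 8.96 and 8.03 in Tbk1+/-, 1.504, 7.97 and 8.51 in Tak1ΔM/+, 3.57, 4.93 and 2.68 in Tbk1/Ripk1, 2.55, 1.01 and 0.996 in Tbk1/Tak1 and 2.08, 2.63 and 3.03 in Tbk1/Tak1/Ripk1. Library 1 of Tak1ΔM/+, at 1.504 CPM, lay within the Tbk1/Tak1 range, and the call was lost without Tbk1/Tak1 library 3 (adjusted p = 0.0511). Against Tbk1+/-, mt-Ta, mt-Tn, mt-Tc and mt-Ty fell too, with log2 fold changes of -3.36, -3.63, -3.42 and -3.64 (adjusted p of 0.000637 to 0.00152). Of 9 tested nuclear copies, 6 fell as well (median -1.80), among them Gm28437 (-1.74 ± 0.37, adjusted p = 0.00475). Without Tbk1/Tak1 library 3 the number of members that fell went from 18 to 11.

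Against Tak1ΔM/+, 5 of 27 members fell in Tbk1/Tak1 and none rose, with 2.05% of all genes lower. The median log2 fold change was -1.39, and 0.00633 over all genes. The 5 were mt-Ta (-2.72 ± 0.52 (SE, adjusted p = 0.00843)), mt-Tn (-2.50 ± 0.53 (SE, adjusted p = 0.016)), mt-Tc (-2.57 ± 0.60 (SE, adjusted p = 0.0276)), mt-Ty (-2.78 ± 0.57 (SE, adjusted p = 0.0122)) and mt-Nd3 (-5.11 ± 0.90 (SE, adjusted p = 0.0053)). Libraries did not overlap for 7 members, all lower in Tbk1/Tak1 (12.5% of all genes). The count was 10 without library 1 of Tak1ΔM/+, 2 without library 2 or 3 of it, 3 without Tbk1/Tak1 library 1, 2 without library 2 and 1 without library 3. It was 4 with mt-Nd3 and Gm28438 summed (mt-Nd3 adjusted p = 0.661). With only the libraries compared, the calls of mt-Tn (adjusted p = 0.0669) and mt-Tc (0.0542) were lost. Y-linked genes summed to at most 2.78 CPM in every Tak1ΔM/+ library and to 68.1 to 90 CPM in every Tbk1/Tak1 library. Genotype and Y-linked counts therefore cannot be told apart in this comparison.

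For the loss of 1 allele alone the main test called no member. For Tbk1+/- against WT, edgeR called 0 of 27 (0.0521% of all genes), none had an unadjusted p under 0.05, and DESeq2 called 0, but edgeR without the filter on low counts called 7, all higher. The share of all genes called without the filter is not given here, so these 7 cannot be read against it. All 27 log2 fold changes were above 0, with a median of 0.65 (range 0.10 to 1.27), and 11 members had no overlap, all higher in Tbk1+/- (6.28% of all genes). For Tak1ΔM/+ against WT, edgeR called 0 of 27 (0.0149% of all genes), none had an unadjusted p under 0.05, and DESeq2 called 0. Here 22 log2 fold changes were below 0 and 5 above (median -0.21), and no member was free of overlap (7.33% of all genes were lower and 7.75% higher without overlap). The wide spread within Tak1ΔM/+, where library 1 stood 3.32 times under library 3 in protein-coding share, limits what could be detected.

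The interaction asks whether the effect of Tak1ΔM/+ differed between Tbk1+/- and WT cells. It was below 0 for 5 of 27 members by edgeR's test (1.22% of all genes), with a median over the members of -2.02 and over all genes of 0.000628. The 5 were mt-Ta at -3.27 ± 0.69 (SE, adjusted p = 0.0258), mt-Tn at -3.04 ± 0.70 (SE, adjusted p = 0.037), mt-Tc at -3.23 ± 0.80 (SE, adjusted p = 0.0491), mt-Ty at -3.42 ± 0.75 (SE, adjusted p = 0.0304) and mt-Nd3 at -5.21 ± 1.11 (SE, adjusted p = 0.0258). With mt-Nd3 and Gm28438 summed the value of mt-Nd3 was -0.72 (adjusted p = 0.683). The count fell to 0 without WT library 3, Tbk1+/- library 3, Tak1ΔM/+ library 2 or 3, or Tbk1/Tak1 library 2. It was 1 without WT library 1, Tbk1+/- library 1, or Tbk1/Tak1 library 1 or 3, and 2 without WT library 2. It was also 1 without the 5 libraries whose Tbk1 level goes against the label, and 17 with a term for Y-linked counts, with the limit of that term given above. All Tak1ΔM/+ libraries were low in Y-linked counts and all Tbk1+/- and Tbk1/Tak1 libraries had them. This difference enters the interaction and cannot be told apart from genotype.

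The genotypes with Ripk1 D138N bear on RIPK1 kinase activity, but most of their libraries go against their Tbk1 label. Tbk1/Tak1/Ripk1 keeps 1 Ripk1 allele without D138N, and Tbk1/Ripk1, with D138N on both alleles, lacks Tak1ΔM. Neither therefore tests full loss of the kinase activity together with Tbk1/Tak1. In the libraries labelled Tbk1/Tak1/Ripk1, 2 of 27 members rose against Tbk1/Tak1 (1.84% of all genes rose). They were mt-Nd3 (log2 fold change of 5.03 ± 0.90 (SE, adjusted p = 0.00651)) and mt-Tp (at least 3.95-fold higher, adjusted p = 0.0346). The value for mt-Nd3 was 0.49 (adjusted p = 0.73) when it was summed with Gm28438. The mt-Tp call was lost without any 1 of the Tbk1/Tak1 libraries (adjusted p = 0.104 to 0.148) or without library 2 (0.107) or 3 (0.111) of Tbk1/Tak1/Ripk1. The median over the 27 members was 0.95, against 0.00254 over all genes, with 24 above 0, and 7 members had no overlap, all higher (12.8% of all genes). All 3 libraries of this genotype had Tbk1 near WT, so none of these values can be given without them.

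Against WT, the libraries labelled Tbk1/Tak1/Ripk1 gave 0 calls of 27 by edgeR (0% of all genes) and 0 by DESeq2, with 5 members at an unadjusted p under 0.05 and a median of -0.60 (0.0358 over all genes). Without the filter on low counts edgeR called 10, all lower. Here and below, the shares of all genes called without the filter or by DESeq2 are not given. Tbk1/Ripk1 against WT likewise gave 0 calls by edgeR (0% of all genes) and 0 by DESeq2, with 3 members at an unadjusted p under 0.05 and a median of -0.65 (0.0156 over all genes), and without the filter edgeR called 7, all lower. Against Tbk1+/-, the libraries labelled Tbk1/Ripk1 gave 0 calls by edgeR (0.521% of all genes) but 4 by DESeq2, 14 by edgeR without the filter and 16 members at an unadjusted p under 0.05. There the median was -1.37, all 27 were below 0, and 20 had no overlap, all lower than in Tbk1+/- (8.04% of all genes). Tbk1/Ripk1 library 2, the only one with Tbk1 at the heterozygous level, had a protein-coding share of 1.56%. This was below the 1.82% of the lowest Tbk1+/- library and within the WT range of 0.671% to 1.62% (mean 1.24%). Without library 2, 1 member was called in that comparison.

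The overall test of the 6 genotypes called 5 of 27 members, against 7.18% of all genes. They were mt-Ta (adjusted p = 0.00738), mt-Tn (0.00589), mt-Tc (0.0185), mt-Ty (0.0108) and mt-Nd3 (0.0113, and 0.705 when summed with its copy). The number was 14 without library 2 of Tbk1/Ripk1 or without the 5 libraries that go against their Tbk1 label, 10 without library 1 of Tak1ΔM/+ and 3 without Tbk1/Tak1 library 3.

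Few nuclear genes of the same respiratory complexes were called in Tbk1/Tak1 against WT. Of 75 tested nuclear subunits of complexes I to V (76 listed), edgeR called 1, which was lower (3.90% of all genes were lower), and DESeq2 called 5, of which 4 were lower and 1 higher; the median log2 fold change was 0.00037 (range -0.57 to 0.49). The one edgeR called was Atp5c1, the gamma subunit of ATP synthase, which fell from 285 CPM ± 17.9 (SD, n = 3) to 216 CPM ± 11.3 (log2 fold change of -0.40 ± 0.11, adjusted p = 0.0412). Against Tbk1+/-, 13 of the 75 fell and none rose (median -0.20), against 8.24% of all genes that fell. Of the 13 calls, 8 were lost without Tbk1/Tak1 library 1, 3 without library 2 and 5 without library 3, and 6, 1 and 5 without Tbk1+/- libraries 1, 2 and 3. Those of Ndufb11, Ndufc2, Uqcrb, Uqcrh and Atp5j held without each of the 6 in turn, and the largest log2 fold changes were those of Uqcrb of complex III (-1.08 ± 0.20, adjusted p = 0.00184) and Atp5j of ATP synthase (-0.82 ± 0.14, adjusted p = 0.00125). The interaction was below 0 for 4 of 75 by edgeR (Ndufb11, Uqcrh, Atp5k and Atp5j, -0.80 to -1.10), against 1.22% of all genes, and for 11 by DESeq2. Of these 4 interactions, Ndufb11, Atp5k and Atp5j were lost without single libraries of each genotype (adjusted p of 0.0556 to 0.152), and all 4 without the 5 libraries that go against their label (0.0506 to 0.106). Uqcrh, the hinge protein of complex III, was the only one of the 75 that edgeR called in the libraries labelled Tbk1/Tak1/Ripk1 against Tbk1/Tak1 (0.59 ± 0.11, adjusted p = 0.00901), a call lost without Tbk1/Tak1 library 1 (0.0552) or 2 (0.0668) or library 3 of Tbk1/Tak1/Ripk1 (0.0656). DESeq2 called 3 of the 75 there, all higher. The call of Atp5c1 against WT was lost without any 1 of the 6 libraries (adjusted p of 0.0507 to 0.149).

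Among the nuclear genes that transcribe and replicate mitochondrial DNA, 0 of 17 were called by edgeR in Tbk1/Tak1 against WT, 2 had an unadjusted p under 0.05, and DESeq2 called 0. Of all genes, edgeR called 2.16% higher and 3.90% lower, so 0 of 17 does not set this list apart. Polrmt, the mitochondrial RNA polymerase, was at 30.04 CPM ± 7.68 (SD, n = 3) in WT and 29.3 CPM ± 2.86 in Tbk1/Tak1. Tfam, which packages the genome and starts its transcription, was at 21.6 CPM ± 2.18 and 23.4 CPM ± 2.07. Of 23 tested genes of mitochondrial RNA processing and stability, edgeR called 2 (2.16% of all genes rose) and DESeq2 3, all higher. Grsf1, an RNA-binding protein of mitochondrial RNA granules, rose from 17.8 CPM ± 9.30 to 61.1 CPM ± 8.19 (log2 fold change of 1.77 ± 0.44, adjusted p = 0.0233), and was at 38.4 CPM ± 16.8 in Tak1ΔM/+ and 25.0 CPM ± 2.70 in Tbk1+/-. Fastk, whose mitochondrial form binds the mt-Nd6 mRNA, rose from 34.4 CPM ± 0.0325 to 51.3 CPM ± 3.80 (0.58 ± 0.14, adjusted p = 0.0247). The call of Grsf1 was lost without WT library 1 (adjusted p = 0.106) or 2 (0.111) or Tbk1/Tak1 library 2 (0.0712) or 3 (0.0757), and that of Fastk without any 1 of the 6 libraries except Tbk1/Tak1 library 1 (0.0639 to 0.0968).

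Fundc1, a mitophagy receptor of the outer mitochondrial membrane, fell from 90.2 CPM ± 13.8 to 51.6 CPM ± 8.80 (-0.81 ± 0.19, adjusted p = 0.0199) and was the only one of 12 tested mitophagy genes called by edgeR, while DESeq2 called 2, both lower. Mrps28, of the small mitochondrial ribosomal subunit, rose from 12.2 CPM ± 1.76 to 20.7 CPM ± 1.39 (0.77 ± 0.18, adjusted p = 0.0194) and was the only one of 43 mitochondrial ribosomal protein genes called by edgeR, while DESeq2 called 2, both higher. Of 10 tested regulators of mitochondrial biogenesis edgeR called 0 against WT, with 3 at an unadjusted p under 0.05, and DESeq2 called 0. Of all genes, edgeR called 2.16% higher and 3.90% lower in this comparison. The call of Fundc1 was lost without WT library 1 (0.0525) or 2 (0.0985) or Tbk1/Tak1 library 1 (0.0661) or 3 (0.114), and that of Mrps28 without WT library 2 (0.0561) or 3 (0.0823) or Tbk1/Tak1 library 1 (0.0751) or 3 (0.087). In the same comparison 14 of 23 cell cycle genes fell (3.90% of all genes) and 20 of 24 type I interferon response genes rose (2.16% of all genes). Their summed levels in Tbk1/Tak1 were 424 to 458 CPM and 1362 to 1415 CPM, against 649 to 839 CPM and 478 to 508 CPM in WT. In Tbk1/Tak1 against Tbk1+/-, edgeR called 1974 of the 13447 genes tested. There it called 2 of the 10 biogenesis regulators, both higher. These were Pprc1 (1.41 ± 0.40, adjusted p = 0.0249) and Myc (0.95 ± 0.24, adjusted p = 0.0133). Of the 12 mitophagy genes it called 6, of which 2 were higher and 4 lower. Pink1 (1.21 ± 0.38, adjusted p = 0.0383) and Bnip3 (-1.15 ± 0.255, adjusted p = 0.006) changed most. Whether these programmes have a part in the mitochondrial differences was not tested.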

How the data were processed

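RNA was amplified with oligo(dT) priming (Smart-seq2, 1 ng RNA, 12 PCR cycles), which does not mark the strand, per the labels' protocols. The deposited values are raw counts per Ensembl gene. The submitters' processing notes name STAR, featureCounts and mm10, while the labels' protocol text names RSEM; versions and the treatment of multi-mapping reads are not given in the sources used here. Counts of all 18 libraries were fitted with edgeR 4.0.16 in R 4.3.3 (TMM, filterByExpr, 1 term per genotype, quasi-likelihood test, Benjamini-Hochberg adjustment over 13447 genes, threshold 0.05). DESeq2 1.42.0 was an alternative. The edgeR fit was run on simulated counts first. Total counts of 8016559 to 22989116 limit the tRNA genes most. Symbols, sequences and copies come from GENCODE M21 (GRCm38).

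The members and lists were chosen with earlier results of these data known. All members are accounted for; values in every library are given for members called in any comparison and for the most abundant member of each class. Of each other list, up to 4 called genes with the largest change in Tbk1/Tak1 against WT and up to 2 in another comparison are named, or the 2 most abundant where none was called. Replicate numbers were not taken to pair the libraries.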

Additional observations from a re-analysis of the deposited data

Results flagged for a closer look

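For 5 members the effect of Tak1ΔM/+ differed between Tbk1+/- and WT cells by the interaction test of edgeR. The log2 difference was -3.27 for mt-Ta (adjusted p = 0.0258), -3.04 for mt-Tn (0.037), -3.23 for mt-Tc (0.0491), -3.42 for mt-Ty (0.0304) and -5.21 for mt-Nd3 (0.0258). The first 4 are neighbouring light-strand tRNA genes. The value of mt-Nd3 was -0.72 (adjusted p = 0.683) when its counts were summed with those of Gm28438. The number of members called fell to 0 without WT library 3, Tbk1+/- library 3, Tak1ΔM/+ library 2 or 3, or Tbk1/Tak1 library 2. The Tak1ΔM/+ libraries were also low in Y-linked counts, which the interaction cannot separate from genotype.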

How the results depend on the processing

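No fold change that was checked changed direction under any alternative run. The check covered members and genes of the mitochondrial lists called in the main fit. It also covered mt-Rnr2, mt-Co1, mt-Cytb, mt-Nd1 and mt-Nd6 in some comparisons, so other fold changes were not checked. Of 714 leave-one-out results for these genes, 483 kept their call status, 228 lost the call and 3 gained it. Of 27 members, DESeq2 called 12 in Tbk1/Tak1 against WT, 4 in Tbk1/Ripk1 against Tbk1+/-, 5 in Tbk1/Tak1/Ripk1 against Tbk1/Tak1 and 16 over all 6 genotypes. Without a filter on low counts the calls were 7 in Tbk1+/-, 16 in Tbk1/Tak1, 7 in Tbk1/Ripk1 and 10 in Tbk1/Tak1/Ripk1 against WT, 16 in Tbk1/Tak1 against Tak1ΔM/+, 14 in Tbk1/Ripk1 against Tbk1+/-, 15 in Tbk1/Tak1/Ripk1 against Tbk1/Tak1, 16 in the interaction and 18 over all 6 genotypes. With a mean of at least 5 CPM they were 3 against Tak1ΔM/+, 0 in Tbk1/Tak1/Ripk1 against Tbk1/Tak1 and 3 in the interaction, since fewer genes were tested. With only the libraries compared they were 14 against WT, 1 in Tbk1/Tak1/Ripk1 against Tbk1/Tak1 and 3 in the interaction. The cause was not tested for the other settings. The shares of all genes called under these alternative settings are not given here, so the counts cannot be read against them.

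Alternatives chosen after seeing the data also moved counts. Without the 5 libraries whose Tbk1 level goes against the label there were 13 calls in Tbk1/Tak1 against WT, 1 in the interaction and 14 over all 6 genotypes. With a term for Y-linked counts there were 16 against WT, 16 against Tak1ΔM/+, 13 in Tbk1/Tak1/Ripk1 against Tbk1/Tak1, 17 in the interaction and 17 over all 6 genotypes. In the genotypes that inform this term, the libraries low in Y-linked counts were those with a TMM factor above 1. The term therefore cannot separate Y-linked counts from that library property, and its counts are no cleaner than the main fit. With mt-Nd3 and Gm28438 summed, 1 was called in Tbk1/Tak1/Ripk1 against Tbk1/Tak1.

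Leaving out 1 library at a time gave 4 to 10 calls in Tbk1/Tak1 against WT (4 without Tbk1/Tak1 library 2 or 3), 11 to 18 against Tbk1+/-, 1 to 10 against Tak1ΔM/+, 0 to 7 in the interaction, 3 to 14 over all 6 genotypes, 1 to 2 in Tbk1/Tak1/Ripk1 against Tbk1/Tak1 and 0 to 1 in Tbk1/Ripk1 against Tbk1+/-. The comparisons of Tbk1+/-, Tak1ΔM/+, Tbk1/Ripk1 and Tbk1/Tak1/Ripk1 with WT stayed at 0. For Tbk1+/-, the protein-coding and rRNA shares were 2.34% and 5.16% of counts outside the top rRNA gene, and the protein-coding, rRNA and tRNA shares were 2.49%, 5.50% and 0.00999% against protein-coding genes only.

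With the replicate number as a block, 2 members were called in the interaction and 9 over all 6 genotypes. Pairs of libraries with the same number had a median correlation of -0.0069 (45 pairs, 7 over 0.1). For pairs with another number the median was 0.00419 (90 pairs, 4 over 0.1). On these medians the numbers were not taken as pairs, but a pairing of some libraries was not tested.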
